A study of Homo sapiens with 4 samples.

Results

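The BCL2 family members described here are 10 genes of the mitochondrial route to cell death: BCL2, BCL2L1, MCL1, BAX, BAK1, BBC3, PMAIP1, BCL2L11, BID and BAD. Every probe set whose array annotation names a member was taken, which gave 33 of the 54675 probe sets on the array. Of these, 32 name a member alone and cover 9 of the 10 genes. BBC3 is named only by a probe set that also names the microRNA genes MIR3190 and MIR3191. The list goes by the genes' known roles. It leaves out the relatives BCL2A1 and BNIP3, which rose in 3D, so a count over the members does not cover them.

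M14, an established human melanoma cell line, had been stably transfected with FLAG-tagged ARHGAP8 (coding region minus exon 5) in pIRES2-eGFP or with the empty vector. Both lines were selected with G418, sorted for eGFP and kept in G418 during culture. They were harvested after 4 days in Matrigel, a basement membrane gel (3D), or on collagen-coated plastic (2D). RNA from ARHGAP8 cells in 3D, ARHGAP8 cells in 2D, empty-vector cells in 3D and empty-vector cells in 2D was hybridised to 1 Affymetrix HG-U133 Plus 2.0 array each. There was thus 1 transfected line per plasmid and 1 array per group, which limits the precision of every value, and no group has a replicate of its own.

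The family works by binding within itself at the outer mitochondrial membrane. Pro-survival proteins (BCL2, BCL-XL from BCL2L1, and MCL1) hold in check the effectors BAX and BAK1, which otherwise form pores that release cytochrome c and start the caspase cascade. BH3-only proteins (PUMA from BBC3, NOXA from PMAIP1, BIM from BCL2L11, and BID and BAD) report stress by occupying the pro-survival proteins, and some of them activate the effectors directly. Melanoma cells are known for relying on several pro-survival members, among them MCL1 and the relative BCL2A1. Much of the control over these proteins is exerted after transcription, by phosphorylation, cleavage and turnover, which an RNA array does not measure.

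Each value below is a MAS5 signal in arbitrary units, scaled to the same trimmed mean on every array. Signals of different probe sets are not compared with one another. Log2 differences were taken after raising signals below 72.3, the median over all arrays, to that floor. The ARHGAP8 3D array stood apart in its control spots: its median 18S rRNA control signal of 626 lay far above the 27.7 to 49.4 of the remaining 3, and its 28S control signal of 1389.8 above their 94.4 to 119. The share of probe sets above the floor was 51.9% on that array and 48.4% to 50.3% on the others, and the 3'/5' ratio of ACTB was 1.32, against 1.05 to 1.23. The 3D over 2D ratio in the empty-vector line and the ratio between the lines in 2D do not use that array, and they are given beside the members' values. Of 8 melanocyte lineage markers, 6 (MITF, SOX10, MLANA, S100B, TYR and TYRP1) were above the floor on all 4 arrays, PMEL was below it on all 4, and DCT had no probe set of its own. The summed signal of the melanocyte markers was 8495 (ARHGAP8) and 8774 (empty vector) in 3D, against 5169 (ARHGAP8) and 7918 (empty vector) in 2D. Bright probe sets weigh most in such a sum, and the markers did not all share its order. TYRP1 was higher in the ARHGAP8 line, at 957 and 438 in 3D and 339 and 161 in 2D (ARHGAP8 and empty vector). SOX10 was lower in 3D in each line (1114 and 1741, against 1582 and 1979). S100B was lower in 3D in the empty-vector line (1122, against 1336). Of markers of other cell types, 3 of 6 fibroblast, 2 of 6 epithelial (KRT8 and KRT18) and 1 of 6 leukocyte and endothelial genes were above the floor on every array, while COL3A1, EPCAM, CDH1 and PTPRC were below it on all 4. The summed signal in 3D and 2D ran from 595 to 763 and from 575 to 700.1 for the fibroblast list, from 577 to 694 and from 974 to 1169.8 for the epithelial list, and from 426 to 430.5 and 388 on both arrays for the leukocyte and endothelial list. The part of these levels in the members' values was not tested.

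The probe set that stands for BBC3 cannot be assigned to PUMA mRNA alone. The mature products of the 2 microRNA genes it also names are shown here because they lie inside the BBC3 gene on chromosome 19, so transcripts of the locus overlap. Their RefSeq sequences (GRCh38.p14) run 5' to 3' with the seed, bases 2 to 8, in capitals.
hsa-miR-3190-3p: uGUGGAAGguagacggccagaga
hsa-miR-3191-3p: uGGGGACGuagcuggccagacag
hsa-miR-3191-5p: cUCUCUGGccgucuaccuucca
The first lies at chr19:47226988-47227010 on the + strand, the second at chr19:47226952-47226974 and the third at chr19:47226990-47227011, both on the - strand. No seed is shared among the 3. The array was hybridised with cRNA amplified from poly(T)-primed cDNA and does not measure the mature microRNAs.

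No member passed the test for either factor. In an additive limma model of culture and plasmid, fitted over 13239 genes with Benjamini-Hochberg adjustment, 0 of the 8 testable members passed at an adjusted p under 0.05 for 3D against 2D, where 925 genes (6.99%) did. For ARHGAP8 against empty vector 0 of 8 passed, where 17 genes (0.128%) did. At an unadjusted p under 0.05 the counts were 0 of 8 for culture, against 21% of all genes, and 0 of 8 for plasmid, against 8.14%. The median log2 difference of the 8 members was -0.036 for 3D minus 2D, beside 0.034 for all genes, and -0.13 for ARHGAP8 minus empty vector, beside -0.0028 for all genes. The member estimates ran from -0.45 to 0.26 for culture and from -0.41 to 0.39 for plasmid. The 3D minus 2D difference had the same sign in both lines for 4 of the 8 members (63.0% of all genes), and the difference between the lines had the same sign in both cultures for 5 of 8 (51.7% of all genes). The error of these estimates comes from 1 residual degree of freedom plus the spread shared over all genes, and it does not cover how much separately made lines or cultures would vary. In RNA from whole cultures, fewer cells that transcribe a gene and less RNA per cell cannot be told apart.

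**Figure D1:**
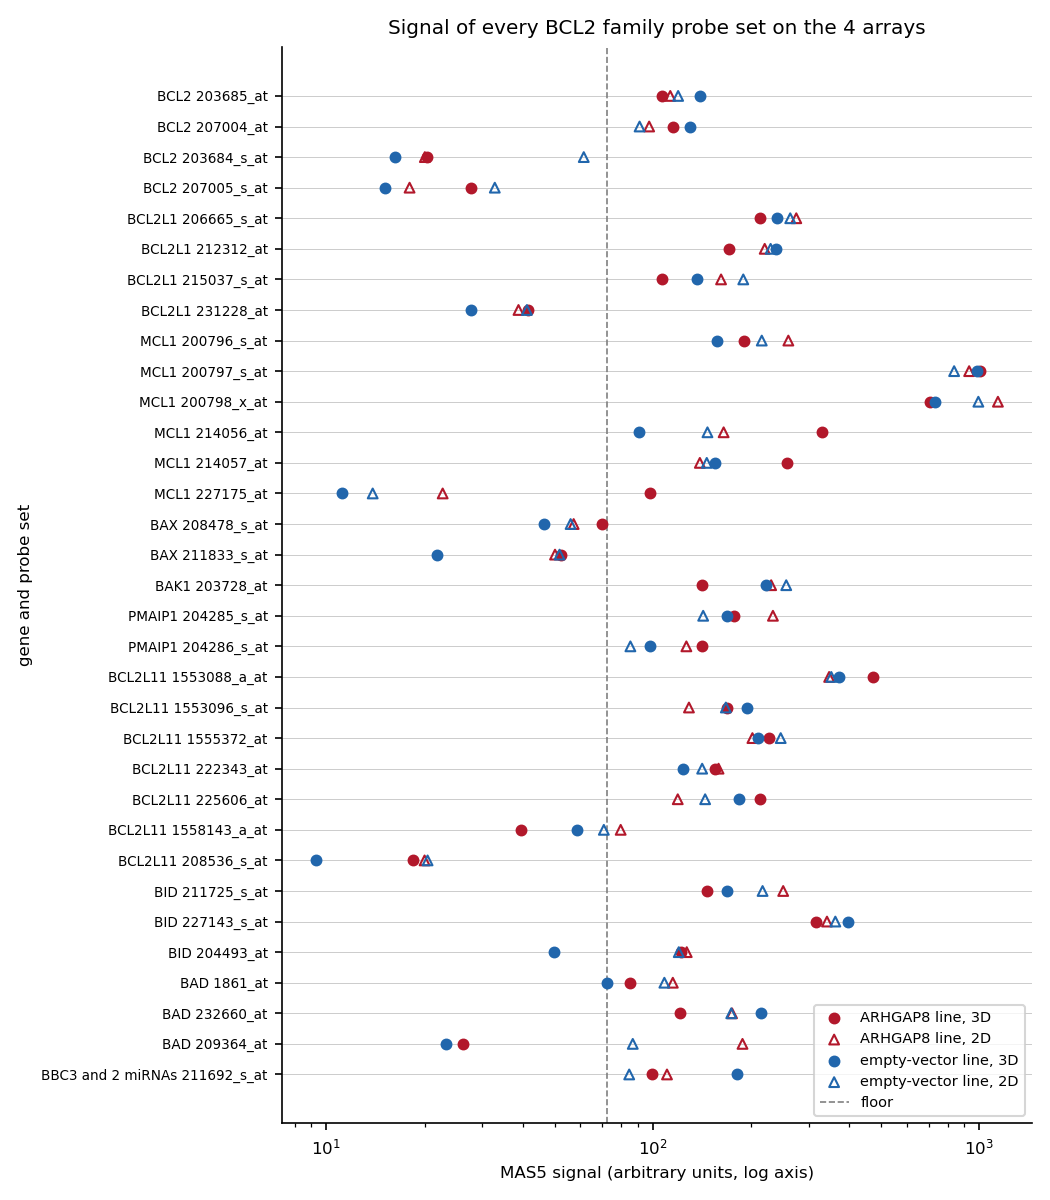
MAS5 signal (horizontal log axis, arbitrary units) of the 33 BCL2 family probe sets, one per line of the plot, on the 4 arrays: filled circles are 3D and open triangles 2D, red is the ARHGAP8 line and blue the empty-vector line, and the dashed line is the floor of 72.3. Most probe sets hold their 4 arrays close together. MCL1 214056_at and 227175_at have the ARHGAP8 3D array far to the right, and BAD 209364_at has both 3D arrays below the floor.

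Among the pro-survival members, BCL2 encodes the founding inhibitor of mitochondrial cell death. Probe set 203685_at had a signal of 107 in ARHGAP8 3D and 113 in ARHGAP8 2D, against 139 in empty-vector 3D and 119.6 in empty-vector 2D. Both ARHGAP8 arrays lay below both empty-vector arrays, while the 2 cultures overlapped. The log2 difference was -0.23 ± 0.25 (moderated SE) between the lines (95% interval -0.75 to 0.28; limma, Benjamini-Hochberg adjusted p = 0.921) and 0.070 ± 0.25 between 3D and 2D (95% interval -0.44 to 0.58; adjusted p = 0.915). Without the ARHGAP8 3D array, the log2 ratio of BCL2 was 0.22 for 3D over 2D and -0.080 for ARHGAP8 over empty vector. Probe set 207004_at read 115 and 97.4 in ARHGAP8 3D and 2D, and 130.4 and 91.1 in empty-vector 3D and 2D, so both 3D arrays were the higher ones there. Its 3D minus 2D log2 difference was 0.38 (limma, adjusted p over all probe sets = 0.464). The other BCL2 probe sets, 203684_s_at and 207005_s_at, were below the floor on all 4 arrays, with signals from 15.1 to 61.4. The annotation derives 207004_at and 207005_s_at from the same transcript record.

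BCL2L1 encodes BCL-XL and, by splicing, the pro-death short form BCL-XS, which these probe sets were not shown to separate. Probe set 206665_s_at read 213 in ARHGAP8 3D and 275 in ARHGAP8 2D, against 239.6 in empty-vector 3D and 264 in empty-vector 2D. Both 3D arrays were below both 2D arrays. The 3D minus 2D log2 difference was -0.25 ± 0.22 (95% interval -0.71 to 0.20; limma, Benjamini-Hochberg adjusted p = 0.560), and it was -0.14 in the empty-vector line alone. For ARHGAP8 minus empty vector it was -0.053 ± 0.22 (95% interval -0.51 to 0.40; adjusted p = 0.986), and the ratio between the lines in 2D turned to 0.062. Probe set 215037_s_at had the same order by culture, at 107 and 136 in 3D (ARHGAP8 and empty vector) against 162 and 189 in 2D, with a 3D minus 2D log2 difference of -0.54 (limma, adjusted p over all probe sets = 0.317). Probe set 212312_at did not, since empty-vector 3D at 239 was its highest array and ARHGAP8 3D at 171 its lowest. Probe set 231228_at was below the floor on every array.

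MCL1 encodes a short-lived pro-survival protein that is replaced by new synthesis. Its probe set of highest mean signal, 200797_s_at, read 1003 in ARHGAP8 3D and 931 in ARHGAP8 2D, against 982 in empty-vector 3D and 837 in empty-vector 2D. Both 3D arrays were above both 2D arrays, and in each culture the ARHGAP8 array was the higher one. The log2 difference was 0.17 ± 0.16 for 3D minus 2D (95% interval -0.16 to 0.50; limma, Benjamini-Hochberg adjusted p = 0.595) and 0.091 ± 0.16 for ARHGAP8 minus empty vector (95% interval -0.24 to 0.42; adjusted p = 0.966). These are the narrowest intervals among the 8 members. The fit ties the error to the signal level, which is high for this probe set, and the intervals do not cover differences among the MCL1 probe sets. Without the ARHGAP8 3D array the MCL1 ratios were 0.23 for culture and 0.15 between the lines.

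The other MCL1 probe sets did not all share this order. Probe set 200798_x_at read 705.5 and 729.6 in 3D (ARHGAP8 and empty vector), against 1140.1 and 993 in 2D, so its 3D arrays were the lower ones. Its 3D minus 2D log2 difference was -0.57 (95% interval -0.92 to -0.22), with an unadjusted p of 0.0035 and an adjusted p over all probe sets of 0.0741 by limma with Benjamini-Hochberg adjustment. Probe set 200796_s_at read 189.7 and 157 in 3D, against 260.1 and 216 in 2D (ARHGAP8 and empty vector in each), a log2 difference of -0.46. The suffix _x_at marks a set whose probes may also match other transcripts, and _s_at one whose probes match several transcripts of a gene or family. Probe set 214056_at read 329.8 in ARHGAP8 3D and 165 in ARHGAP8 2D, against 90.9 in empty-vector 3D and 147 in empty-vector 2D. Here ARHGAP8 3D was the highest array and empty-vector 3D the lowest, and the log2 ratio of ARHGAP8 over empty vector was 1.86 in 3D and 0.16 in 2D. In the probe-set fit its ARHGAP8 minus empty-vector difference was 1.01 (95% interval 0.28 to 1.74; limma, unadjusted p = 0.0098, adjusted p = 0.518). Probe set 214057_at also had ARHGAP8 3D highest, at 257 with ARHGAP8 2D at 139, against 155 and 146 in empty-vector 3D and 2D. Probe set 227175_at was above the floor on the ARHGAP8 3D array only, at 97.9 with ARHGAP8 2D at 22.7, against 11.2 and 13.9 in empty-vector 3D and 2D. These 3 sets are thus high on the array whose rRNA control signals were also high, and the part of that array's quality in them was not tested.

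Of the effectors, BAX encodes a cytosolic protein that moves to mitochondria and forms pores when activated. Probe set 208478_s_at read 69.9 in ARHGAP8 3D and 57.2 in ARHGAP8 2D, against 46.3 in empty-vector 3D and 56.0 in empty-vector 2D. Probe set 211833_s_at read 52.3 and 50.2 in ARHGAP8 3D and 2D, and 21.9 and 51.8 in empty-vector 3D and 2D. Every one of these signals was below the floor, so BAX was not tested. A signal below the floor does not show that the transcript was missing.

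BAK1 encodes the effector that sits in the outer mitochondrial membrane, and it is measured by 1 probe set, 203728_at. Its signal was 142 in ARHGAP8 3D and 230.4 in ARHGAP8 2D, against 222 in empty-vector 3D and 256 in empty-vector 2D. Both 3D arrays were below both 2D arrays, and in each culture the ARHGAP8 array was the lower one. The 3D minus 2D log2 difference was -0.45 ± 0.24 (95% interval -0.95 to 0.042; limma, Benjamini-Hochberg adjusted p = 0.288), the largest in size among the 8 members. It was -0.70 in the ARHGAP8 line and -0.21 in the empty-vector line, which does not use the ARHGAP8 3D array. The ARHGAP8 minus empty-vector log2 difference was -0.40 ± 0.24 (95% interval -0.90 to 0.094; adjusted p = 0.741), with -0.65 in 3D and -0.15 in 2D. Neither difference was told apart from 0 by the test.

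Among the BH3-only members, PMAIP1 encodes NOXA, which binds mainly MCL1. Probe set 204285_s_at read 177 in ARHGAP8 3D and 233 in ARHGAP8 2D, against 168 in empty-vector 3D and 143 in empty-vector 2D. Both ARHGAP8 arrays were above both empty-vector arrays, and the cultures overlapped. The ARHGAP8 minus empty-vector log2 difference was 0.39 ± 0.25 (95% interval -0.13 to 0.92; limma, Benjamini-Hochberg adjusted p = 0.788), and for 3D minus 2D it was -0.080 ± 0.25 (95% interval -0.61 to 0.44; adjusted p = 0.901). Both depended on the ARHGAP8 3D array: without it the log2 ratio was 0.71 between the lines and turned to 0.24 for 3D over 2D. Probe set 204286_s_at read 141 and 127 in ARHGAP8 3D and 2D, against 97.7 and 85.4 in empty-vector 3D and 2D, again with no overlap between the lines. Its log2 ratio of ARHGAP8 over empty vector was 0.53 in 3D and 0.57 in 2D, and the fitted 0.55 had a 95% interval of 0.014 to 1.08 (limma, unadjusted p = 0.045, adjusted p over all probe sets = 0.694). PMAIP1 was thus a member whose probe sets all placed the ARHGAP8 line above the empty-vector line in both cultures, without passing the test. In 3D, however, the log2 ratio between the lines at 204285_s_at was 0.072, a near tie. The signals of 204286_s_at were dim, all below the doubled floor of 144.5.

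BCL2L11 encodes BIM, which binds all the pro-survival members named above. Probe set 1553088_a_at read 471 in ARHGAP8 3D and 347 in ARHGAP8 2D, against 373 in empty-vector 3D and 352 in empty-vector 2D. Both 3D arrays were above both 2D arrays, with ARHGAP8 3D highest. The 3D minus 2D log2 difference was 0.26 ± 0.19 (95% interval -0.13 to 0.65; limma, Benjamini-Hochberg adjusted p = 0.463), with 0.44 in the ARHGAP8 line and 0.082 in the empty-vector line. The ARHGAP8 minus empty-vector difference was 0.16 ± 0.19 (95% interval -0.23 to 0.55; adjusted p = 0.938), and the ratio between the lines in 2D turned to -0.022. Probe set 225606_at was also higher in 3D, at 214 and 184 (ARHGAP8 and empty vector) against 119 and 145 in 2D, with a log2 difference of 0.59 (95% interval 0.016 to 1.17; limma, unadjusted p = 0.045, adjusted p over all probe sets = 0.269). Probe set 1553096_s_at had ARHGAP8 arrays at 169 (3D) and 129 (2D), against empty-vector arrays at 194 (3D) and 167 (2D). Probe set 1555372_at ran from 202 to 246 and 222343_at from 124 to 159, with 3D minus 2D log2 differences of -0.029 and -0.11. Probe set 1558143_a_at passed the floor on the ARHGAP8 2D array only, at 79.7, and 208536_s_at on none.

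BID encodes a BH3-only protein that caspase-8 cleaves, which links death receptors to mitochondria. Probe set 227143_s_at read 316 in ARHGAP8 3D and 341 in ARHGAP8 2D, against 396 in empty-vector 3D and 362 in empty-vector 2D. Both ARHGAP8 arrays were below both empty-vector arrays. The ARHGAP8 minus empty-vector log2 difference was -0.20 ± 0.19 (95% interval -0.60 to 0.19; limma, Benjamini-Hochberg adjusted p = 0.897), and the 3D minus 2D difference was 0.0088 ± 0.19 (95% interval -0.39 to 0.41; adjusted p = 0.985). Probe set 211725_s_at separated the cultures instead, at 147 and 169 in 3D (ARHGAP8 and empty vector) against 251 and 217 in 2D. Its 3D minus 2D log2 difference was -0.57 (95% interval -1.11 to -0.023; limma, unadjusted p = 0.042, adjusted p over all probe sets = 0.261). Probe set 204493_at had 1 low array, empty-vector 3D at 49.8, with 122 in ARHGAP8 3D, 127 in ARHGAP8 2D and 120.1 in empty-vector 2D. Without the ARHGAP8 3D array, 227143_s_at gave log2 ratios of 0.13 for culture and -0.085 between the lines. With the mean of its 3 probe sets the BID estimates turned to -0.32 for culture and 0.072 for plasmid.

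BAD encodes a BH3-only protein that survival kinases keep bound to 14-3-3 proteins by phosphorylation. Probe set 232660_at read 122 in ARHGAP8 3D and 175 in ARHGAP8 2D, against 214 in empty-vector 3D and 174 in empty-vector 2D. The 2D arrays were almost equal and the 3D arrays lay on either side of them. The ARHGAP8 minus empty-vector log2 difference was -0.41 ± 0.26 (95% interval -0.95 to 0.14; limma, Benjamini-Hochberg adjusted p = 0.788), made of -0.82 in 3D and 0.0082 in 2D. For 3D minus 2D it was -0.11 ± 0.26 (95% interval -0.65 to 0.43; adjusted p = 0.863), and it turned to 0.30 in the empty-vector line, which does not use the ARHGAP8 3D array. Probe set 1861_at read 85.4 and 72.3 in 3D (ARHGAP8 and empty vector), against 115 and 108 in 2D. Probe set 209364_at read 26.2 and 23.2 in 3D, against 188 and 86.8 in 2D, in the same order of lines. Both of these sets had their 3D arrays lowest. The 3D minus 2D log2 difference of 1861_at was -0.51 (limma, unadjusted p = 0.038, adjusted p over all probe sets = 0.250). That of 209364_at was -0.82 with both 3D signals raised to the floor, so it is a bound and not a measured size. The annotation derives both from 1 transcript record, yet their log2 ratio of ARHGAP8 over empty vector in 2D was 0.086 for 1861_at and 1.12 for 209364_at. With the mean of the BAD probe sets the plasmid estimate turned to 0.11.

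The probe set of BBC3, MIR3190 and MIR3191, 211692_s_at, read 99.5 in ARHGAP8 3D and 111 in ARHGAP8 2D, against 180.5 in empty-vector 3D and 84.7 in empty-vector 2D. The empty-vector line held both the highest and the lowest array. The log2 ratio of 3D over 2D was -0.15 in the ARHGAP8 line and 1.09 in the empty-vector line, and that of ARHGAP8 over empty vector was -0.86 in 3D and 0.38 in 2D. This was the one member probe set above the floor on all 4 arrays whose ratio between the lines had opposite signs in the 2 cultures and differed by at least 1 log2 unit. With 1 array per group that difference was not tested. How many of all probe sets meet the same rule was not counted. Among the pathway genes described below, MDM2, CDKN1A and SESN2 also met it, with gaps of 1.25, -1.03 and 1.38, so it is not particular to 211692_s_at. In the probe-set fit the 3D minus 2D difference of 211692_s_at was 0.47 (limma, adjusted p = 0.453). Its ARHGAP8 minus empty-vector difference was -0.24 (adjusted p = 0.958).

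When each probe set was tested on its own, 0 of the 24 probe sets that name a member alone and passed the filter reached an adjusted p under 0.05 for culture, where 3.49% of 28651 probe sets did. For plasmid the count was 0 of 24, where 0% of all probe sets did. At an unadjusted p under 0.05, 5 of 24 were called for culture (1 higher in 3D, 4 lower), or 20.8% beside 17.6% of all probe sets. The 1 was BCL2L11 225606_at, and the 4 were MCL1 200798_x_at, BID 211725_s_at and BAD 209364_at and 1861_at; the count for 209364_at rests on 3D signals raised to the floor. For plasmid 2 of 24 (8.33%) were called, both higher in the ARHGAP8 line, beside 7.06% of all probe sets: MCL1 214056_at and PMAIP1 204286_s_at. These shares are near those of all probe sets, and probe sets of 1 gene are not independent of each other.

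**Figure D2:**
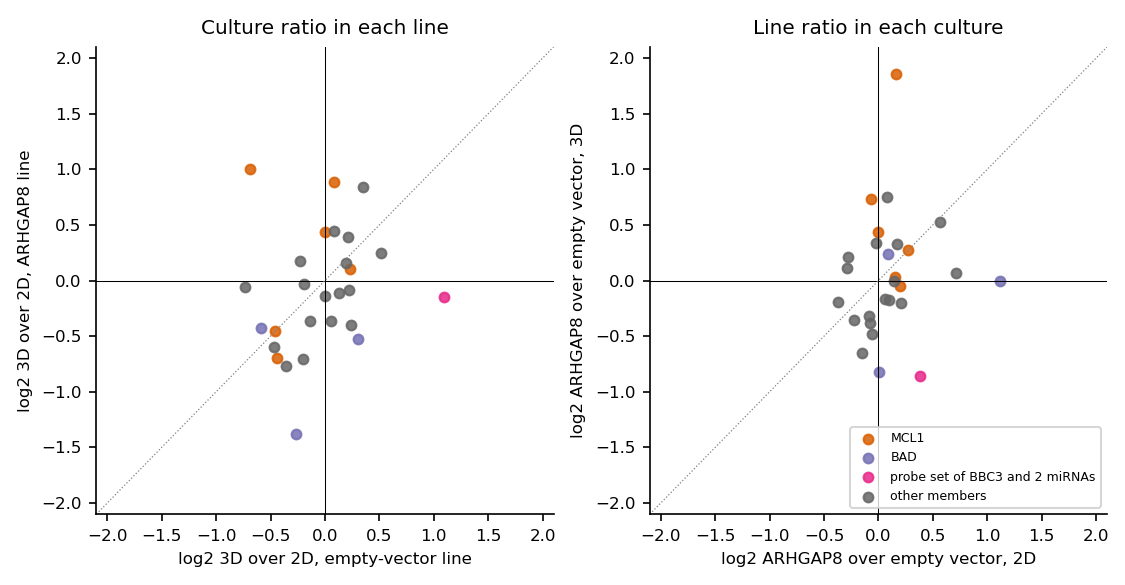
Log2 ratios of the 27 member probe sets above the floor on at least 1 array, 1 point each. Left: 3D over 2D in the ARHGAP8 line (vertical) against the empty-vector line (horizontal); right: ARHGAP8 over empty vector in 3D (vertical) against 2D (horizontal); the dotted line marks equal ratios. MCL1 214056_at stands highest in the right panel at 1.86 and BAD 209364_at farthest right at 1.12; the axes of each panel share no array, but an array on one side of a panel enters the other panel too.

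Single comparisons between arrays, which carry no test, showed how far the 27 member probe sets above the floor on at least 1 array moved. Between ARHGAP8 3D and ARHGAP8 2D, 8 of 27 were at least 1.5-fold apart (3 higher, 5 lower), where 17.7% of 32083 probe sets were (9.66% higher, 8.06% lower). Between empty-vector 3D and empty-vector 2D the count was 4 of 27 (1 higher, 3 lower), where 14.6% were (7.72% higher, 6.83% lower). Between the ARHGAP8 and empty-vector lines 6 of 27 differed in 3D (3 higher, 3 lower), where 14.4% of all did (7.08% higher, 7.28% lower), and 2 of 27 in 2D (both higher), where 5.23% did (2.18% higher, 3.06% lower). The 2 in 2D were BAD 209364_at and PMAIP1 204285_s_at. Only MCL1 214056_at passed 1.5-fold for culture in both lines, and in opposite directions, at a log2 ratio of 1.00 in the ARHGAP8 line and -0.69 in the empty-vector line. Past 2-fold there were 2 for culture in the ARHGAP8 line (MCL1 214056_at higher, BAD 209364_at lower), 1 for culture in the empty-vector line (211692_s_at, higher), 1 between the lines in 3D (MCL1 214056_at, higher) and 1 in 2D (BAD 209364_at, higher). The shares of all probe sets past 2-fold in those comparisons were 3.76%, 2.81%, 2.8% and 0.474%.

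The wider apoptosis machinery was read from 10 lists of 77 genes around the members, of which 66 could be tested. For 3D against 2D, 5 rose, 3 fell and 58 did not pass, so 8 of 66 were called beside 6.99% of all genes (2.83% higher, 4.15% lower). Their median log2 difference was 0.067, beside 0.034 for all genes. For ARHGAP8 against empty vector 0 of 66 passed by limma, beside 0.128% of all genes, and the lowest adjusted p was 0.211. At an unadjusted p under 0.05 there were 5 of 66, beside 8.14% of all genes. The median there was 0.037, beside -0.0028 for all genes. The lists hold genes already known from earlier results of these data, so their counts are a description.

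The relatives that rose in 3D were BCL2A1, BNIP3 and BNIP3L. BCL2A1, a pro-survival relative known as a target of the melanocyte factor MITF in melanoma, read 905 in ARHGAP8 3D and 176 in ARHGAP8 2D, against 1078 in empty-vector 3D and 281 in empty-vector 2D. Both 3D arrays were far above both 2D arrays. Its 3D minus 2D log2 difference was 2.15 (95% interval 1.78 to 2.52; limma, Benjamini-Hochberg adjusted p = 2.4e-07), and MITF itself rose by 0.65 (adjusted p = 0.0277), with 2180.1 and 2393 in 3D against 1113 and 1904 in 2D (ARHGAP8 and empty vector). The 3D over 2D log2 ratio of MITF was 0.97 in the ARHGAP8 line and 0.33 in the empty-vector line. SOX10, of the same marker list, had ratios of the other sign, -0.51 in the ARHGAP8 line and -0.18 in the empty-vector line. The part of MITF in the BCL2A1 level was not tested. BNIP3, a mitochondrial protein of mitophagy induced under low oxygen, read 3417 and 3056 in 3D (ARHGAP8 and empty vector) against 1382 and 1186 in 2D, and its relative BNIP3L 1389 and 1551 against 559 and 484. They were 2.52-fold and 2.82-fold higher in 3D (limma, adjusted p = 2.7e-05 and 5.9e-06), and a second probe set of each had a log2 difference of 1.69 and 1.16. BCL2L2, the remaining pro-survival relative that could be tested, read 169 and 174 in 3D and 253 and 239 in 2D, a log2 difference of -0.52 that did not pass (limma, adjusted p = 0.201).

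**Figure D3:**
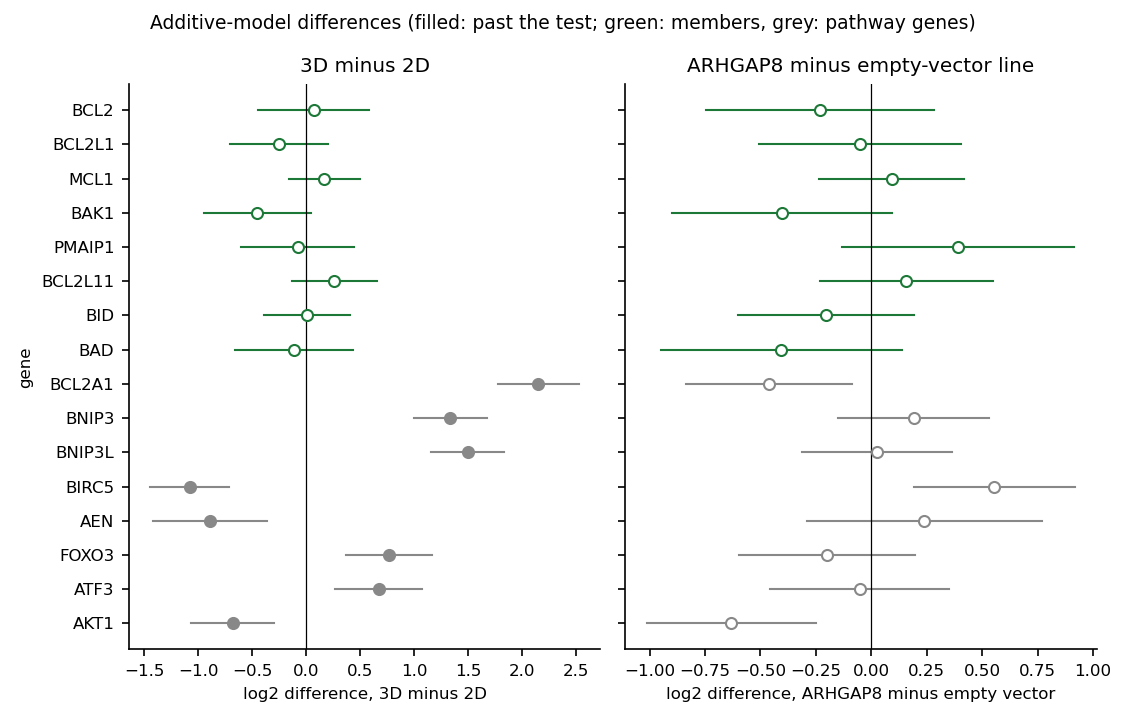
Log2 difference in the additive limma model with its 95% interval (horizontal lines) for the 8 tested members (green) and the 8 pathway genes that passed for culture (grey); left, 3D minus 2D, and right, ARHGAP8 minus empty vector, with filled points past an adjusted p of 0.05. Every member interval crosses 0 in both panels. In the left panel BCL2A1 reaches 2.15 and BIRC5 -1.08. The pathway genes were drawn because they passed for culture, and the 58 tested ones that did not pass are left out. Green and grey are therefore not a comparison of members with their pathway.

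The promoters of a member and of the relative that rose most are shown because they hold the E-boxes CACGTG and CATGTG, hexamers that MITF is known to bind. These motifs were picked after the sequences and the results had been seen. RefSeq (GRCh38.p14) gave entries for 9 of the 10 members, 15 in all. In the 250 bases before each start, read on both strands, CACGTG occurred in 4 of the 15 entries (BAX, BBC3 and BID) and CATGTG in 1 (BID), while 6.34% and 9.42% of 35116 promoter entries held them. BID has 5 entries. Its windows with CACGTG (chr22:17773984-17774233 and chr22:17774043-17774292) overlap, so they do not count as separate promoters. Its window with CATGTG (chr22:17774666-17774915) does not overlap them. The 250 bases before the starts of BAX (chr19:48954625-48954874, + strand) and BCL2A1 (chr15:79971197-79971446, - strand) follow, with the motifs in capitals.
BAX: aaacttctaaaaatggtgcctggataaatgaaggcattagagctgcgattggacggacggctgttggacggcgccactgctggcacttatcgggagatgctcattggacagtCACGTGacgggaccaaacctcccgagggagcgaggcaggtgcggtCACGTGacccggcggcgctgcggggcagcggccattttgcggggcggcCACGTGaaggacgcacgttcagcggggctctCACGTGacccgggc
BCL2A1: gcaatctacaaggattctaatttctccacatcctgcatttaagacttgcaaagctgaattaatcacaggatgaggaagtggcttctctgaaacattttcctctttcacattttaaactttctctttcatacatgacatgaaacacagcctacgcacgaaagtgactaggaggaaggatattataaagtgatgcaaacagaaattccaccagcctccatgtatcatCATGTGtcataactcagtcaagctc
BAX held CACGTG 4 times, with all its signals below the floor, and BCL2A1 held CATGTG once. The window of BNIP3, which also rose in 3D, was read too and held CACGTG once. A match is a string of letters and does not show that a factor binds there.

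Downstream of the members, 1 list held VDAC1, VDAC2, VDAC3, CYCS, DIABLO, HTRA2, AIFM1, ENDOG and APAF1. None of these 9 genes and none of the 5 tested caspases passed in either comparison. DIABLO, which is released with cytochrome c and blocks inhibitors of apoptosis, had the largest culture difference of its list, at 0.30 (limma, adjusted p = 0.307). HTRA2, a protease released alongside it, read 467 and 944 in 3D and 702 and 773 in 2D (ARHGAP8 and empty vector), with an ARHGAP8 minus empty-vector difference of -0.58 (adjusted p = 0.297) and 0.24 at its other probe set. Among caspases, the initiators CASP10 and CASP8 had the largest culture and plasmid differences, at 0.45 (adjusted p = 0.281) and 0.33 (adjusted p = 0.752). The CASP10 value was 0.70 with no floor. In 2D, which does not use the ARHGAP8 3D array, the log2 ratio of ARHGAP8 over empty vector was -0.0089 for CASP8 and -0.14 for HTRA2. The other CASP8 probe sets were dim and differed from that. Probe set 1553306_at read 96.7 and 104 in ARHGAP8 3D and 2D, with both empty-vector arrays below the floor, and 207686_s_at passed the floor in ARHGAP8 2D only. BIRC5, which encodes survivin and acts in mitosis as well as in blocking cell death, was the 1 of 6 inhibitor of apoptosis genes that passed: it read 375 and 269 in 3D against 835 and 539 in 2D (ARHGAP8 and empty vector). It fell by 1.08 on the log2 scale in 3D (adjusted p = 0.000566), and 1 of its other 3 probe sets, 1555826_at, went the other way at 0.38. In the death receptor pathway 0 of 7 passed. The receptor TNFRSF1A had a culture difference of -0.31 (adjusted p = 0.409), and CFLAR, an inhibitor of caspase-8, a plasmid difference of -0.37 (adjusted p = 0.655), with both signs among its other probe sets and -0.69 in 2D.

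Upstream of the members, 1 of 13 tested p53 target genes passed: AEN, a p53-induced exonuclease, fell by 0.89 on the log2 scale in 3D (limma, adjusted p = 0.0373). That call was lost with quantile normalization (adjusted p = 0.0507), with no floor (0.0628) and with the doubled floor, where the difference was -0.22 (adjusted p = 0.363). SESN2, a stress-induced p53 target, had the largest plasmid difference of that list at 0.44 (adjusted p = 0.796), made of 1.13 in 3D and -0.25 in 2D. Among 7 transcription factors known to act on BH3-only genes, FOXO3, which can induce BCL2L11 and BBC3, rose by 0.77 (adjusted p = 0.0166), with 476 and 687 in 3D against 351 and 320.4 in 2D (ARHGAP8 and empty vector). Its other probe sets gave 0.20 to 0.50. ATF3, a stress-induced factor, rose by 0.67 (adjusted p = 0.0395), with 0.77 and 0.32 at its other probe sets. The ATF3 call was lost with quantile normalization (adjusted p = 0.0644) and without the intensity trend (0.0947). FOXO1 had a plasmid difference of 0.34 (adjusted p = 0.823). AKT1, a kinase that phosphorylates BAD and FOXO proteins, was the 1 of 9 genes of MCL1 turnover and BAD phosphorylation that passed. It read 362 and 729.9 in 3D against 756 and 899.7 in 2D (ARHGAP8 and empty vector), and fell by 0.68 in 3D (adjusted p = 0.0263), and its ARHGAP8 minus empty-vector difference was -0.63 (adjusted p = 0.211). Its level on the ARHGAP8 3D array was the lowest of the 4, and without that array its 3D over 2D log2 ratio was -0.30. The AKT1 call was lost with quantile (adjusted p = 0.0921) and cyclic loess normalization (0.0723). The BH3-only relative BMF, at 0.25 with both 2D signals raised to the floor (0.98 with no floor), and the atypical relative BCL2L15, at 0.38 for plasmid, did not pass (adjusted p = 0.552 and 0.793). With every gene kept regardless of its signal, or with the mean of a gene's probe sets, none of the 8 culture calls held, and none of the 925 over all genes did.

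**Figure D4:**
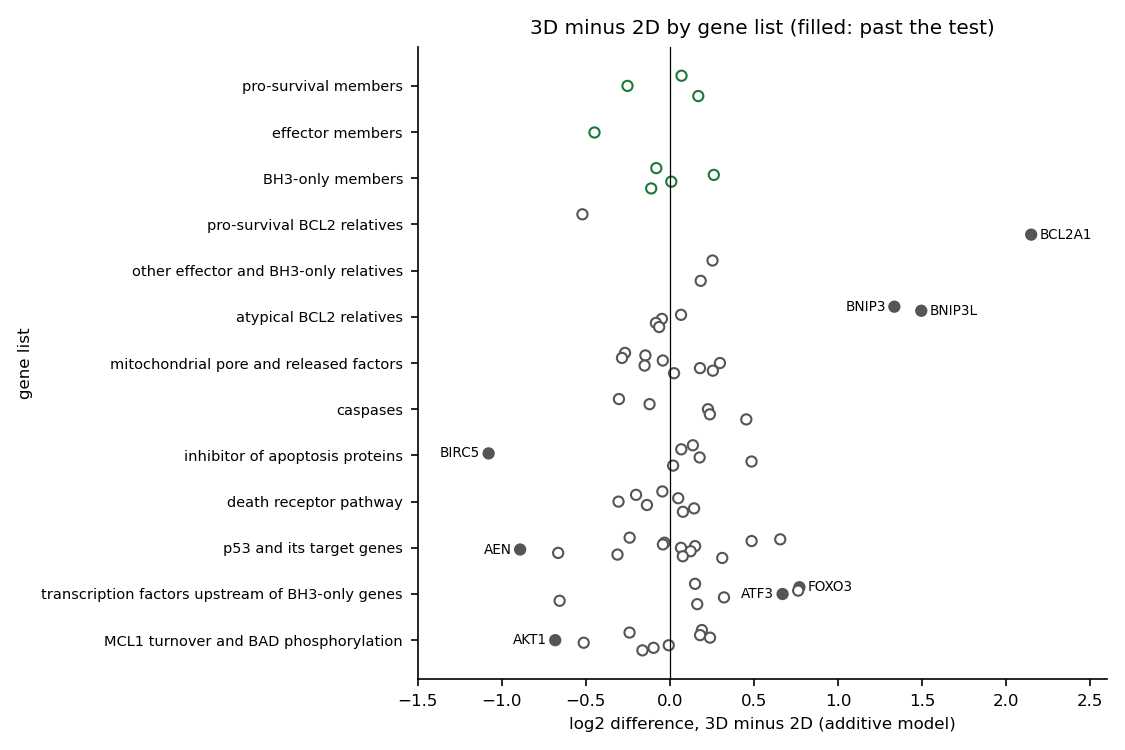
3D minus 2D log2 difference (horizontal axis) of each tested gene in the 3 member groups (green) and the 10 pathway lists (grey); filled, labelled points passed the limma test over all genes. The members lie between -0.45 and 0.26, and BCL2A1 at 2.15 and BNIP3 at 1.34 lie on the right, with BNIP3L between them, and BIRC5 at -1.08 lies on the left.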

How the data were processed

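RNA of 4 cultures of M14 transfectants was measured on 1 array each. Per the submitters' processing notes the intensity values that the authors deposited, 1 for each probe set, came from MAS5; its version was not given in the sources used here. Arrays were scaled to 1 trimmed mean (2% from each end), 62 control probe sets were left out, and signals were floored at 72.3 and put on the log2 scale. Gene names came from the platform annotation, updated through gene IDs: 41091 name 1 gene, 1801 several and 11721 none. A gene took the probe set naming it alone with the highest mean, and was tested if that was above the floor on at least 2 of 4 arrays.

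An additive model (plasmid plus culture) was fitted over all genes with limma 3.58.1 in R 4.3.3, with an intensity trend and Benjamini-Hochberg adjustment at 0.05. It leaves 1 residual degree of freedom and cannot test the interaction. Tables and figures used Python 3.11.15, pandas 2.3.3, numpy 2.4.6 and matplotlib 3.10.9. Members and lists were chosen with earlier results of these data known. The text names every member and member probe set, each pathway gene that passed, and the gene with the largest culture and plasmid difference in each list; BCL2L2, MITF, SOX10 and the motifs were added after their values were seen. Alternatives were other scalings, floors, filters, probe set rules, variance models and fold thresholds.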

Additional observations from a re-analysis of the deposited data

Results flagged for a closer look

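The probe set of BBC3, MIR3190 and MIR3191 was flagged because its ratio between the lines had opposite signs in the 2 cultures. The log2 ratio of ARHGAP8 over empty vector was -0.86 in 3D and 0.38 in 2D, a gap of -1.24. With 1 array per group this difference was not tested. How many of all probe sets meet the same rule was not counted.

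The rRNA control spots, which enter no comparison, were brighter on the ARHGAP8 3D array than elsewhere. The median 18S control signal was 626, against 27.7 to 49.4, and the median 28S control signal was 1389.8, against 94.4 to 119.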

How the results depend on the processing

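No member passed for culture or plasmid under any of the 9 alternatives of the test. Where a setting called no gene at all, no member could pass, so such a setting adds no support. For plasmid these were quantile and cyclic loess normalization, no filter on dim genes, the mean of probe sets and every probe set tested. For culture they were no filter on dim genes and the mean of probe sets. The members' chosen probe sets or their means gave 71 values per term. Their lowest adjusted p by limma was 0.164 for culture and 0.541 for plasmid. Over every member probe set the lowest was 0.0741 for culture and 0.518 for plasmid. Some estimates changed sign: for culture, BCL2 at -0.020 with quantile and -0.011 with cyclic loess normalization, PMAIP1 at 0.047 and BID at -0.32 with the mean of a gene's probe sets, and BAD at 0.014 with the doubled floor; for plasmid, BID at 0.072 and BAD at 0.11 with the mean of probe sets. The 8 pathway genes called for culture became 5 with quantile normalization (AEN, AKT1 and ATF3 lost). Without the intensity trend they became 5 (AKT1, ATF3 and FOXO3 lost). They became 0 both without a filter on dim genes and with the mean of probe sets. Over all genes these last 2 settings also gave 0. With every probe set tested on its own, the chosen sets of AEN, AKT1 and ATF3 did not pass (limma, adjusted p = 0.0928, 0.0687 and 0.0801). Over all genes quantile normalization called 271 higher and 294 lower for culture, against 375 and 550, and the plasmid calls, 9 and 8, became 0 and 0 with quantile or cyclic loess normalization and 28 and 33 with genes above the floor on all 4 arrays. Without the intensity trend the culture calls were 213 and 212. Member probe sets at least 1.5-fold apart for 3D over 2D in the ARHGAP8 line were 8, against 2 at 2-fold and 5 with the doubled floor. In the empty-vector line they were 4, against 1 and 0; between the lines they were 6 in 3D, against 1 and 3, and 2 in 2D, against 1 and 1. The causes were not tested. No paired analysis was possible because the labels give no replicate numbers and each group has 1 array; the additive fit itself compares cultures within a line and lines within a culture. Leaving out the ARHGAP8 3D array leaves single ratios and no test: for culture PMAIP1 turned to 0.24 and BAD to 0.30, and for plasmid BAD to 0.0082, BCL2L1 to 0.062, BCL2L11 to -0.022, CASP8 to -0.0089 and SESN2 to -0.25. Signals near the floor limit what can be read for BAX and for the dim probe sets of BCL2, MCL1, PMAIP1 and BAD. The same holds for the probe set of BBC3, MIR3190 and MIR3191. An estimate that did not pass is not shown to be 0.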
